A study of Mus musculus with 2 samples.

Results

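The phagocyte NADPH oxidase is the enzyme with which neutrophils and macrophages make superoxide, and 5 of its genes, Cybb, Cyba, Ncf1, Ncf4 and Rac2, were followed here across marrow cell types. They were picked by gene symbol, as 5 of the 32285 genes of the count tables, and all 5 had counts in both libraries. Cells came from the femoral marrow and from the implant surface of mice with an osteoporotic fracture, held by a rod (nail) inside the marrow space. There were 2 droplet libraries. One came from mice with a magnesium (Mg) nail and the other from mice with a Mg-TAGelMA nail, where GelMA is gelatin methacryloyl, a light-set gel; TA is not spelled out. Strain, age, sex, the time after surgery and the number of mice pooled in each library are not given in the sources used here, and nor is a library from mice without a nail. With 1 library per group there is no test of the nails: exact 95% intervals are given that cover counting error alone, and differences describe these 2 libraries.

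The oxidase is split in resting cells. Cybb encodes gp91phox, the membrane subunit that carries electrons across the membrane, and Cyba encodes p22phox, its partner in the heterodimer known as flavocytochrome b558. Ncf1 encodes p47phox, the cytosolic organiser that is phosphorylated on activation, and Ncf4 encodes p40phox, a cytosolic regulator that binds phosphoinositides. Rac2 encodes the small GTPase of blood cells that completes the active complex. Inherited loss of the membrane or cytosolic subunits causes chronic granulomatous disease, in which neutrophils ingest microbes but kill many of them poorly.

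In mm10 coordinates Cybb (ENSMUSG00000015340) lies on the minus strand at chrX:9435252-9487771, with 46.7 kb of annotated intron. Cyba (ENSMUSG00000006519) lies on the minus strand at chr8:122424776-122432930, with 7.12 kb of intron, and Ncf1 (ENSMUSG00000015950) on the minus strand at chr5:134220053-134229625, with 5.91 kb. Ncf4 (ENSMUSG00000071715) lies on the plus strand at chr15:78244801-78262580, with 15.8 kb of intron, and Rac2 (ENSMUSG00000033220) on the minus strand at chr15:78559167-78572783, with 10.5 kb. In the annotation Cyba overlaps Gm20388 and Ncf1 overlaps Gtf2ird2, each on the opposite strand. Whether the counting used strand, and so kept reads of those overlaps apart by gene, is not given in the sources used here.

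Promoter windows of 300 bases, from 250 before to 50 after the start site, were matched for Cybb, Cyba and Ncf1 in the RefSeq table (GRCm38.p6). They are shown because in immature, transitional and mature neutrophil-like cells Cybb and Ncf1 were lower in the Mg-TAGelMA library while Cyba, the partner of Cybb, was higher. The Cybb window is chrX:9469275-9469574, within the annotated span above, the Cyba window chr8:122432891-122433190 and the Ncf1 window chr5:134229576-134229875, all on the minus strand and printed 5′ to 3′. Capitals mark the letters of 2 overlapping motif matches.
Cybb: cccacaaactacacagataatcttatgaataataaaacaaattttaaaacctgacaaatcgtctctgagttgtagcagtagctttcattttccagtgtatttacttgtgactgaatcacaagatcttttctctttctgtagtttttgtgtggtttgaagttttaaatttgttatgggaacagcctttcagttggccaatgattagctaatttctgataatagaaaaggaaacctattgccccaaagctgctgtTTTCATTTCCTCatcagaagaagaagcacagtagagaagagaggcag
Cyba: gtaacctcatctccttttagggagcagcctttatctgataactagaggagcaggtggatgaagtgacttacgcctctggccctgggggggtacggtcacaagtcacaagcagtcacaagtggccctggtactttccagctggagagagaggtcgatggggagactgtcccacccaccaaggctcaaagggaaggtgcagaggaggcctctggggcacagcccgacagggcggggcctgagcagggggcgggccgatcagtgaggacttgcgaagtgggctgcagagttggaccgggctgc
Ncf1: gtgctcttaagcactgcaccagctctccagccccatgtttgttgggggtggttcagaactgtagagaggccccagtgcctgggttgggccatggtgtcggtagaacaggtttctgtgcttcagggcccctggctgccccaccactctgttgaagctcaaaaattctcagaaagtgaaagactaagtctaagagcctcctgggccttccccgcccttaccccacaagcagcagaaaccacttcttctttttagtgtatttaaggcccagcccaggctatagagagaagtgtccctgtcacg
Searched on both strands, GAGGAA, a core of PU.1 sites, matched the Cybb window on the opposite strand, with its first base at position 10, counted from 1 at the start site. The ETS-IRF composite motif, bound jointly by factors of both families, also matched on the opposite strand, from position 4, overlapping the first match. TTGCNNAA, a C/EBP form, matched none of the 3 windows, and neither of the other motifs matched the Cyba or Ncf1 window. Of 32851 promoters searched, 28.3% held GAGGAA, 2.72% held the composite and 10.8% held TTGCNNAA.

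Counts are unique molecular identifiers (UMIs), each standing for 1 captured transcript. They were summed over the cells of a type in a library and divided by all UMIs of those cells, as CPM (UMIs per 1000000). After filters, 8122 Mg cells and 7226 Mg-TAGelMA cells remained, with a median of 3803.5 and 6744 UMIs. Types were set by gates, cut points on the summed UMIs of marker genes per 10000 UMIs of a cell, and are called "-like" because no sort or protein supports them. Neutrophil-like cells passed a cut on S100a8 and S100a9 and were immature-like with a high sum of Ltf, Camp, Ngp and related genes, mature-like with a high sum of Cxcr2, Retnlg, Il1r2 and related genes, and transitional-like with both. None of the 5 genes was a gate marker. The gates held 794 Mg and 925 Mg-TAGelMA immature-like cells, 243 and 523 transitional-like cells, and 221 and 1812 mature-like cells. The cut points were set after the distributions were seen, and 7.81% of the Mg and 5.99% of the Mg-TAGelMA cells past the S100 cut lay within 0.8 to 1.25 times the mature cut. The libraries stood apart in other ways. Gm42418, a gene model over ribosomal RNA, made up 14.9% of UMIs in Mg and 0.119% in Mg-TAGelMA mature neutrophil-like cells, and the 2 libraries shared 21 cell barcodes.

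Cybb was at its highest in immature and transitional neutrophil-like cells and in nonclassical monocyte-like cells, and it was far lower in mature neutrophil-like cells of both libraries. In the Mg library Cybb stood at 820 CPM in early granulocyte-like cells, 2543 in immature, 2834 in transitional and 1079.6 in mature neutrophil-like cells. In the Mg-TAGelMA library the same series was 314, 1912, 1585 and 367 CPM. From immature to mature cells Cybb was 2.36-fold lower (2.17 to 2.56) in Mg cells and 5.21-fold lower (5.03 to 5.39) in the Mg-TAGelMA library. Both differences were past the size rule, which asks that the interval lie past 2-fold throughout and that the higher group reach 50 CPM. Cybb was the 1 of 5 oxidase genes past it in each library, where 23.3% of all genes tested in Mg cells and 34.0% in the Mg-TAGelMA library were past it in either direction, 8.99% and 13.5% on the lower side. Of the Mg-TAGelMA genes past it 60.3% were higher, and 49.8% when the total left out S100a8 and S100a9. With the gate cut points doubled, Cybb in the Mg library had a log2 fold of -0.71 and 0 of the 5 genes were past the rule.

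Most of this difference lay in the last step. Between transitional and mature neutrophil-like cells Cybb was 2.62-fold lower (2.40 to 2.87) in Mg cells and 4.32-fold lower (4.15 to 4.50) in the Mg-TAGelMA library, and again it was the 1 of 5 past the rule. In that step 2.04% of the genes tested in Mg cells and 10.6% in the Mg-TAGelMA library were past it in either direction, 0.84% and 2.59% on the lower side. Of those past it 58.9% and 75.5% were higher, against 69.1% in Mg cells without Gm42418 and AY036118 and 65.0% in Mg-TAGelMA cells without S100a8 and S100a9. Between immature and transitional cells 0 of the 5 genes were past the rule, beside 16.1% and 12.9% of all genes (49.2% of the latter higher, 61.7% with TMM scaling), and Cybb was 1.11-fold higher (1.07 to 1.16) in Mg cells and 1.21-fold lower (1.18 to 1.24) in the Mg-TAGelMA library.

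Cyba, the partner of Cybb, was lower in mature cells by less. It was at 1149.5, 1308, 1021 and 665 CPM in early granulocyte-like, immature, transitional and mature neutrophil-like cells of the Mg library, and at 734, 1612, 1332 and 985 CPM in the Mg-TAGelMA library. From immature to mature cells the fold was 1.97 lower (1.77 to 2.19) and 1.64 lower (1.60 to 1.68), so neither interval lay wholly beyond 2-fold. In the Mg-TAGelMA library the mature level of Cyba was thus 0.611 of its immature level, and that of Cybb 0.192.

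Ncf1, the organiser, followed another course, with its highest level in transitional cells of both libraries. In the Mg library it stood at 472, 844, 1431 and 1344 CPM from early granulocyte-like to mature neutrophil-like cells, and the intervals of the last 2 overlapped. In the Mg-TAGelMA library it stood at 182, 547, 707 and 464 CPM. Mature over immature, Ncf1 was 1.59-fold higher (1.47 to 1.72) in Mg cells and 1.18-fold lower (1.14 to 1.22) in the Mg-TAGelMA library, neither past the size rule. These signs held in 10 of 10 and 11 of 11 settings of scaling, gating, filtering and depth, and the difference between the libraries in this fold was not tested.

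Ncf4, the phosphoinositide-binding subunit, was also lower in mature than in immature cells, short of the size rule. It was at 336, 394, 327 and 245 CPM in Mg cells and at 189.98, 359, 302 and 213 CPM in the Mg-TAGelMA library, in the same order of stages. From immature to mature cells it was 1.61-fold lower (1.36 to 1.93) and 1.68-fold lower (1.60 to 1.77).

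Rac2, the GTPase, differed less among the 3 neutrophil stages than the other 4 genes in both libraries. It was at 906, 887, 924 and 734 CPM in Mg cells and at 512, 973, 1021 and 1052 CPM in the Mg-TAGelMA library. Mature over immature it was 1.21-fold lower (1.09 to 1.34) in Mg cells and 1.08-fold higher (1.05 to 1.11) in the Mg-TAGelMA library. The Mg sign was positive in 1 of 10 settings, with the cut points doubled, and log2 folds ran from -0.62 to 0.07.

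**Figure D1:**
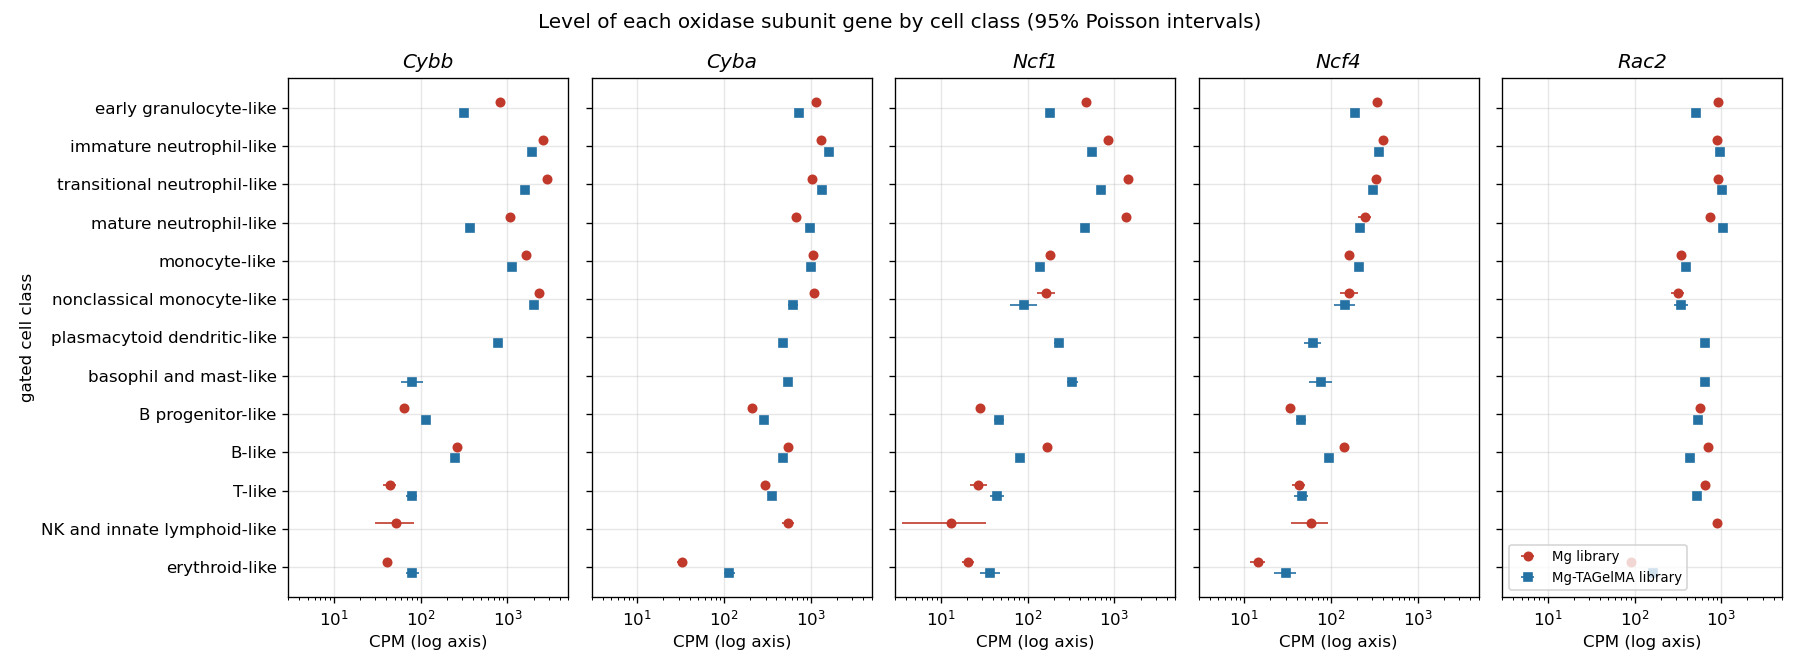
Level of each gene in CPM (log axis) in gated classes of at least 50 cells, Mg library as circles and Mg-TAGelMA library as squares, with exact Poisson 95% intervals. Cybb goes from 2834 and 1585 CPM in transitional to 1079.6 and 367 CPM in mature neutrophil-like cells, while Rac2 stays between 734 and 1052 CPM in the 3 neutrophil stages.

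From early granulocyte-like to immature neutrophil-like cells Cybb was higher in both libraries, and Ncf1 and Cyba joined it past the rule in the Mg-TAGelMA library. Immature over early granulocyte-like cells, Cybb was 3.10-fold higher (2.95 to 3.26) in the Mg library, the 1 of 5 past the size rule there, beside 16.1% of all genes tested and 5.45% on the higher side. In the Mg-TAGelMA library Cybb was 6.08-fold higher (5.85 to 6.33), Ncf1 3.0-fold (2.84 to 3.17) and Cyba 2.20-fold (2.14 to 2.26), 3 of 5 past the rule beside 38.4% of all genes and 10.2% on the higher side. Of all genes past the rule 33.9% and 26.6% were higher, and with TMM scaling 57.4% and 55.4%. With TMM scaling, which sets the bulk of genes equal, 2 of 5 were past the rule in Mg cells and 5 of 5 in the Mg-TAGelMA library. Beside them, 278 of 3135 genes tested were higher and 206 lower in Mg cells. In the Mg-TAGelMA library 651 of 3485 were higher and 525 lower. With cells thinned to 1000 UMIs 1 of 5 was past it in the Mg-TAGelMA library, and the share of all genes at that depth is not given here. The Mg early granulocyte-like cells held a median of 857 S100a8 and S100a9 UMIs and 200.2 immature marker UMIs per 10000, against 234 and 41.1 in the Mg-TAGelMA library, and the part of this in the folds was not tested.

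To place cells along a scale without stage borders, neutrophil-like cells were put in 6 bins by the log2 ratio of mature to immature marker UMIs, with 1 added to each. The bins also took in 26 Mg and 32 Mg-TAGelMA cells past the S100 cut but neither stage cut. Cybb was at 2297, 3217, 3221, 2243, 1069 and 628 CPM from the most immature to the most mature bin of the Mg library. In the Mg-TAGelMA library it was at 1623, 2043, 2024, 1223, 444 and 203 CPM. Cybb was thus highest in bins 2 and 3 and lowest in the last in both libraries. Ncf1 was at 761, 1039, 1245, 1477, 1444 and 1176 CPM in Mg cells and at 453, 581, 712, 676, 506 and 386 CPM in the Mg-TAGelMA library. Its high point lay in bin 4 of the Mg library and in bin 3 of the Mg-TAGelMA library, and the last bin stood above the first in Mg cells and below it in the other. Cyba ran downwards over the 6 bins in both libraries, from 1360.3 to 592 CPM and from 1737 to 949.6 CPM. Ncf4 went from 399 to 263 CPM and from 381 to 192 CPM. Rac2 in the Mg library lay between 819 and 901 CPM in the first 5 bins and at 650.3 CPM (522 to 800.2) in the last, below the first (876 to 927). In the Mg-TAGelMA library Rac2 lay between 946 and 1053 CPM. The bins held 62 to 437 Mg cells and 281 to 902 Mg-TAGelMA cells, and the median depth ran from 10430 to 2041 UMIs in Mg cells and from 18019 to 4766.5 in the other.

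**Figure D2:**
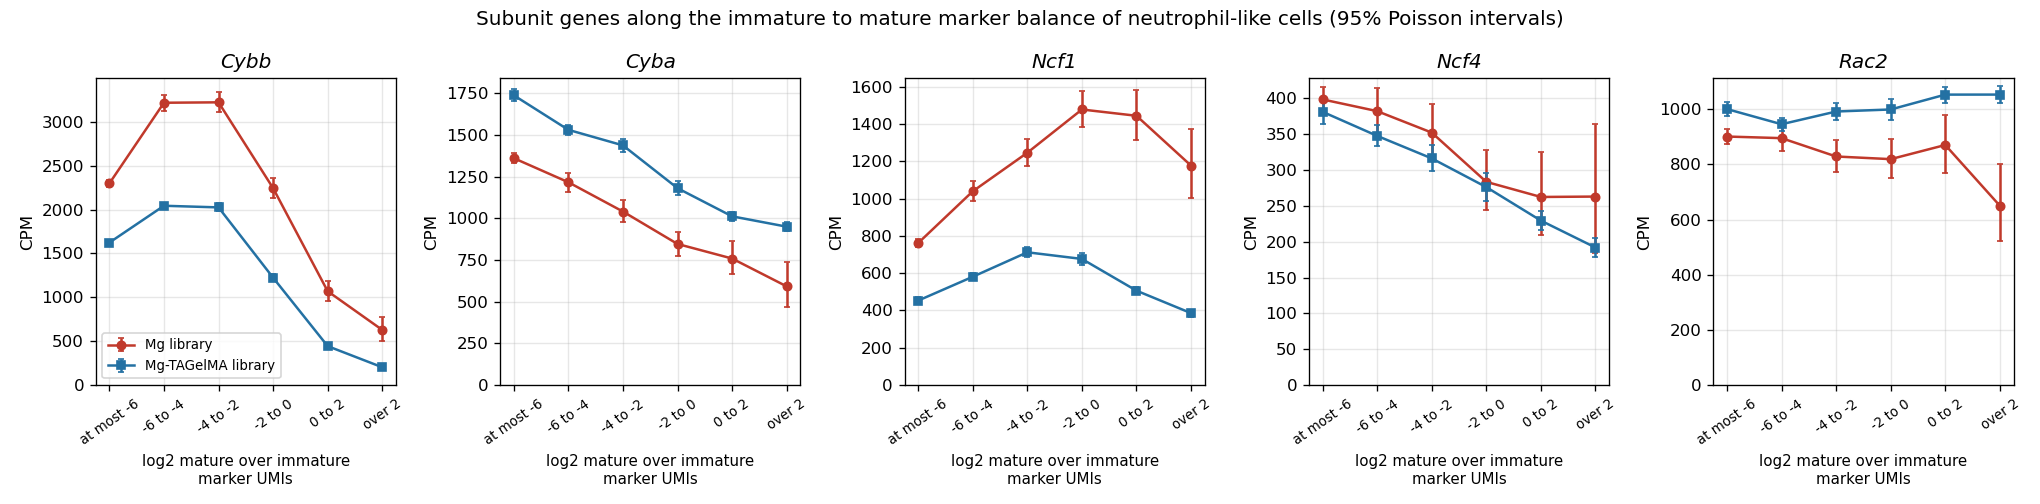
Level in CPM of the 5 genes in 6 bins of the log2 ratio of mature to immature marker UMIs, from immature (left) to mature (right), with exact Poisson 95% intervals. Cybb ends at 628 (Mg, circles) and 203 CPM (Mg-TAGelMA, squares), its lowest bin in each library.

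Between the libraries, Cybb and Ncf1 were lower in the mature neutrophil-like cells of the Mg-TAGelMA library, and Cyba and Rac2 were higher. Cybb stood at 367 CPM (355 to 379) against 1079.6 (995 to 1170), 2.94-fold lower (2.69 to 3.21). Ncf1 stood at 464 CPM (451 to 478) against 1344 (1249 to 1444), 2.90-fold lower (2.68 to 3.13). These were the 2 of 5 genes past the size rule, beside 18.5% of all genes tested in either direction and 8.06% on the lower side. Cyba was 1.48-fold higher (1.33 to 1.65), at 985 against 665 CPM, and Rac2 1.43-fold higher (1.30 to 1.59), at 1052 against 734 CPM. The interval of Ncf4, from 0.733 to 1.05, included no difference, and its sign turned from a log2 fold of -0.20 to 0.15 with TMM scaling. Relative to the median log2 fold of all genes tested, -0.12, Cybb lay at -1.44, Ncf1 at -1.42, Cyba at 0.68 and Rac2 at 0.64.

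Cybb and Ncf1 gave the 2 calls among the 5 genes under each scaling tried, while the balance of all genes moved. Of all genes 309 were higher and 238 lower (56.5% higher), 459 and 107 (81.1%) with TMM scaling, which shifts every log2 fold by 0.34, and 256 and 419 (37.9%) with a total without Gm42418 and its partner model AY036118. Over 11 settings the log2 fold of Cybb ran from -1.79 to -1.21 and that of Ncf1 from -1.77 to -1.19. Within bins of the marker balance the difference was also seen: in the last bin Cybb was at 203 CPM (190.1 to 217) against 628 (503 to 776), and Ncf1 at 386 (368 to 404) against 1176 (1002 to 1373). That bin has no upper bound and held 902 Mg-TAGelMA and 62 Mg cells. Cells of the 2 libraries can differ in balance within a bin, and the part of this was not tested. In each of the 6 bins the Cybb and Ncf1 intervals of the Mg-TAGelMA library lay below those of the Mg library, and the Cyba intervals above them.

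The counting differed between the libraries, with Cell Ranger 5.0.0 for the Mg and 7.0.1 for the Mg-TAGelMA library, and whether reads in introns were counted is not given in the sources used here. In mature neutrophil-like cells genes with over 64 kb of intron had a median log2 fold of 0.61, genes with 8 to 64 kb, the band of Cybb, Ncf4 and Rac2, -0.30, and genes with 2 to 8 kb, the band of Cyba and Ncf1, -0.32. Cybb and Rac2, and likewise Ncf1 and Cyba, went opposite ways within 1 band. Intron length differs within a band, at 46.7 kb for Cybb and 10.5 kb for Rac2, and the part of intron counting in these folds was not tested. Mg mature cells had a median of 189 immature-marker and 14.8 erythroid-marker UMIs per 10000, against 91.5 and 3.55 in the Mg-TAGelMA library. In clusters made without the 5 genes, mature-like cells of the Mg-TAGelMA library led 2 clusters of 963 and 937 cells, while the 2 neutrophil clusters of Mg cells were led by immature-like cells. The nail, the counting software, the depth and these differences cannot be told apart in this design.

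In the 2 stages before, Cybb and Ncf1 were lower in the Mg-TAGelMA library by less. In immature neutrophil-like cells Cybb was 1.33-fold lower (1.30 to 1.36) and Ncf1 1.54-fold lower (1.49 to 1.60) in the Mg-TAGelMA library, and in transitional cells they were 1.79-fold (1.71 to 1.87) and 2.02-fold lower (1.90 to 2.15). Cyba was 1.23-fold (1.20 to 1.26) and 1.30-fold higher (1.22 to 1.39) in these stages. In both stages 0 of 5 genes were past the rule, beside 12.2% of all genes in immature and 11.6% in transitional cells. Rac2 was 1.10-fold higher (1.06 to 1.13) in immature cells and 1.11-fold (1.03 to 1.19) in transitional cells, where its log2 fold of 0.14 turned to -0.03 with the total without Gm42418 and AY036118 and to -0.10 with doubled cut points. Ncf4 was at log2 folds of -0.13 and -0.12, which turned to 0.02 and 0.11 with a total without S100a8 and S100a9. Of all genes past the rule 68.2% were higher in immature and 67.0% in transitional cells, 79.1% and 85.4% with TMM scaling, and 51.0% and 45.7% without Gm42418 and AY036118. Without those 2 genes, or with doubled cut points, 1 of 5 genes was past the rule in transitional cells, beside 394 and 142 genes in all.

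Early granulocyte-like cells had all 5 genes lower in the Mg-TAGelMA library. Cybb was 2.61-fold (2.45 to 2.77) and Ncf1 2.59-fold lower (2.39 to 2.80), 2 of 5 past the rule beside 13.5% of all genes and 3.51% on the lower side. Ncf4 was 1.77-fold, Rac2 1.77-fold and Cyba 1.57-fold lower. With cells thinned to 1000 UMIs the log2 folds were -1.16 for Cybb and -1.37 for Ncf1, with wider intervals. Past the rule were then 0 of 5, beside 84 genes in all. Of all genes past the rule 73.9% were higher, and 59.5% with TMM scaling. This gate asked for a high sum of Elane, Mpo, Prtn3, Ctsg and Ms4a3, without the S100 cut. Of 7 transcription factors known at these genes, Irf8 and Irf1 were higher and Cebpe lower past the rule, beside the same 13.5% of all genes. The marker levels of this gate, given above, moved with the difference, and their part in it was not tested. Whether the gate held cells of the same stage in both libraries was not tested.

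**Figure D3:**
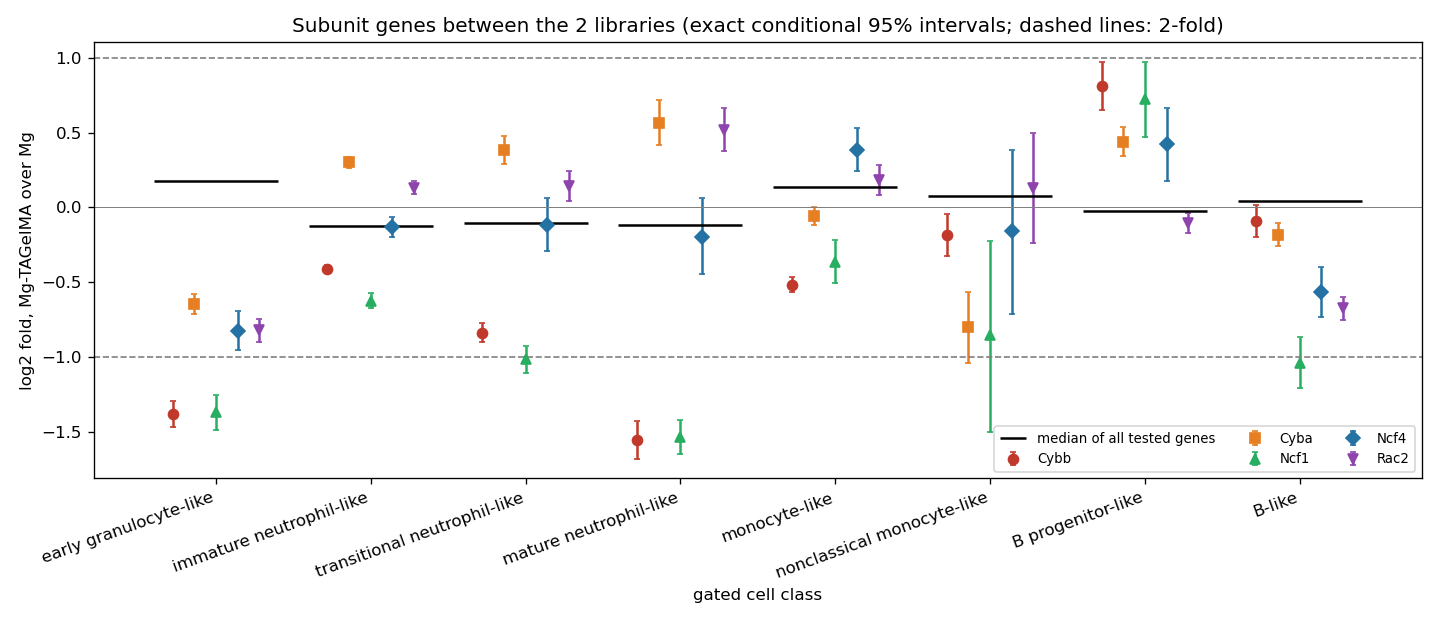
Log2 fold of each gene, Mg-TAGelMA over Mg, within 8 gated classes, with exact conditional 95% intervals, the 2-fold bounds as dashed lines and the median of all tested genes as black bars. Cybb and Ncf1 lie below -1 in early granulocyte-like and mature neutrophil-like cells, at -1.56 and -1.53 in the latter, while Cyba and Rac2 lie above 0 in the 3 neutrophil stages (Rac2 in transitional cells at -0.03 when the total leaves out Gm42418 and AY036118 and at -0.10 with doubled cut points).

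Outside the neutrophil lineage the 5 genes ranked the classes differently. Cybb was at 1623 CPM in Mg and 1133 in Mg-TAGelMA monocyte-like cells, and at 2293 and 2015 CPM in nonclassical monocyte-like cells, the patrolling subset. It was at 783 CPM in the 104 plasmacytoid dendritic-like cells of the Mg-TAGelMA library and at 1042 CPM in 44 such Mg cells. In B-like cells Cybb was at 262 and 246 CPM. T-like cells, at 43.8 and 78.5 CPM, lay close to erythroid-like cells, at 41.0 and 80.3 CPM, a lineage not known for this oxidase. The erythroid-like level serves as a reference, and whether it is free RNA was not tested. With all UMIs kept, 16.3% of the 104 Mg-TAGelMA erythroid-like cells held all 5 genes and 24.0% held none. In the Mg library 40 stem and progenitor-like cells had 24.4 CPM of Cybb (14.2 to 39.0). B progenitor-like cells, at 65.1 and 114 CPM, lay above the erythroid-like level.

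The ranking of classes put Cybb first in transitional neutrophil-like cells of the Mg library and in Mg-TAGelMA nonclassical monocyte-like cells, where its interval overlapped that of immature neutrophil-like cells. Cyba ranked first in immature neutrophil-like cells of both libraries. In macrophage-like cells, not ranked, Cyba was at 1188 CPM (962 to 1451) in Mg and 1352 CPM (1176 to 1547) in Mg-TAGelMA. The Mg interval overlapped that of immature neutrophil-like cells, and the Mg-TAGelMA interval lay below it. It was also found well above the erythroid-like level in lymphoid classes, at 543 and 478 CPM in B-like and 299 and 354 CPM in T-like cells, beside 32.4 and 114 CPM in erythroid-like cells. Cyba in monocyte-like cells, at 1052 and 1011 CPM, was near its neutrophil levels.

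Ncf1 ranked highest in the neutrophil stages: the first 3 classes were transitional, mature and immature neutrophil-like cells in each library, in differing order. Monocyte-like cells had 179 and 139 CPM and nonclassical monocyte-like cells 164 and 90.7 CPM, far under the neutrophil stages. Among other cells, 60 basophil and mast-like cells from Mg-TAGelMA mice had 328 CPM (282 to 378), and plasmacytoid dendritic-like cells 227 CPM (202 to 255). B-like cells had 167 CPM in the Mg and 81.3 CPM in the Mg-TAGelMA library. T-like cells, at 27.1 and 44.5 CPM, overlapped erythroid-like cells, at 20.6 and 37.3 CPM, in their intervals. S100a8 and S100a9, abundant neutrophil transcripts, had a median of 15.1 UMIs per 10000 in Mg and 82.8 in Mg-TAGelMA monocyte-like cells, and the part of neutrophil RNA in the Ncf1 level there was not tested.

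Ncf4 ranked first in immature neutrophil-like cells of both libraries, at 394 and 359 CPM, and stood at 162 and 211 CPM in monocyte-like and 139.9 and 94.5 CPM in B-like cells. T-like cells had 42.5 and 45.7 CPM and erythroid-like cells 14.3 and 29.9 CPM. Rac2 stood above the erythroid-like level in T-like, B progenitor-like, B-like and NK and innate lymphoid-like cells, while the intervals of plasma cell-like and erythroid-like cells overlapped. It was at 647 and 529 CPM in T-like, 574 and 535 CPM in B progenitor-like and 695 and 435 CPM in B-like cells, and at 896 CPM in the 58 NK and innate lymphoid-like cells of the Mg library. Monocyte-like cells had less, 346 and 393 CPM, and erythroid-like cells 89.9 and 163 CPM.

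Outside the neutrophil lineage the libraries were compared in 4 classes: monocyte-like, nonclassical monocyte-like, B progenitor-like and B-like cells. In each of the 4, 0 of 5 genes were past the size rule, and in B progenitor-like cells 3 had the 50 CPM to be tested. The share of all genes past it was 16.3% in monocyte-like, 15.3% in nonclassical monocyte-like, 18.0% in B progenitor-like and 25.6% in B-like cells. Cybb was 1.43-fold lower (1.38 to 1.48) in Mg-TAGelMA monocyte-like cells, a sign that turned in 1 of 12 settings, the clusters made without the 5 genes, with log2 folds from -0.65 to 0.10. In nonclassical monocyte-like cells Cyba was 1.74-fold lower (1.48 to 2.06) in the Mg-TAGelMA library, the opposite direction to the 3 neutrophil stages. Ncf1 there was 1.80-fold lower (1.17 to 2.84), from 32 Mg-TAGelMA and 69 Mg UMIs. Genes with 2 to 8 kb of intron, the band of Cyba and Ncf1, had a median log2 fold of -0.44 in this class. Rac2 in B-like cells was 1.60-fold lower (1.52 to 1.68). Ncf1 in B-like cells was 2.05-fold lower (1.83 to 2.31), the furthest of the 5 in this class, and its log2 fold stayed between -1.15 and -1.02 in 12 settings. The median log2 fold of its intron band in B-like cells was -0.44. In B progenitor-like cells Cybb was 1.76-fold higher (1.57 to 1.96) and Cyba 1.36-fold higher (1.27 to 1.45). The erythroid-like level of Cybb was 41.0 CPM in the Mg and 80.3 CPM in the Mg-TAGelMA library.

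The share of cells with a UMI was compared after each cell was thinned to 1000 UMIs, leaving out shallower cells, with exact binomial intervals. Cybb was found in 90.3% of 772 Mg and 85.6% of 925 Mg-TAGelMA immature neutrophil-like cells, and in 58.6% of 215 (51.7 to 65.3) and 24.8% of 1804 (22.8 to 26.8) mature cells. Erythroid-like cells, the reference used above, gave 3.99% of 878 and 7.95% of 88 at the same depth. Without thinning, Cybb was found in 78.3% of the 221 and 62.6% of the 1812 mature cells, and in 18.9% and 43.3% of the erythroid-like cells.

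For Ncf1 the thinned share was 58.9% and 39.4% in immature, 78.4% and 52.4% in transitional and 74.4% and 32.6% in mature neutrophil-like cells, with 2.51% and 4.55% in erythroid-like cells. The order of the stages in each library was that of the CPM. Cyba was found in 46.5% and 62.4%, and Rac2 in 42.8% and 65.0%, of mature cells in the Mg and Mg-TAGelMA libraries. Ncf4 was found in 18.1% and 18.7% of them, with overlapping intervals.

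**Figure D4:**
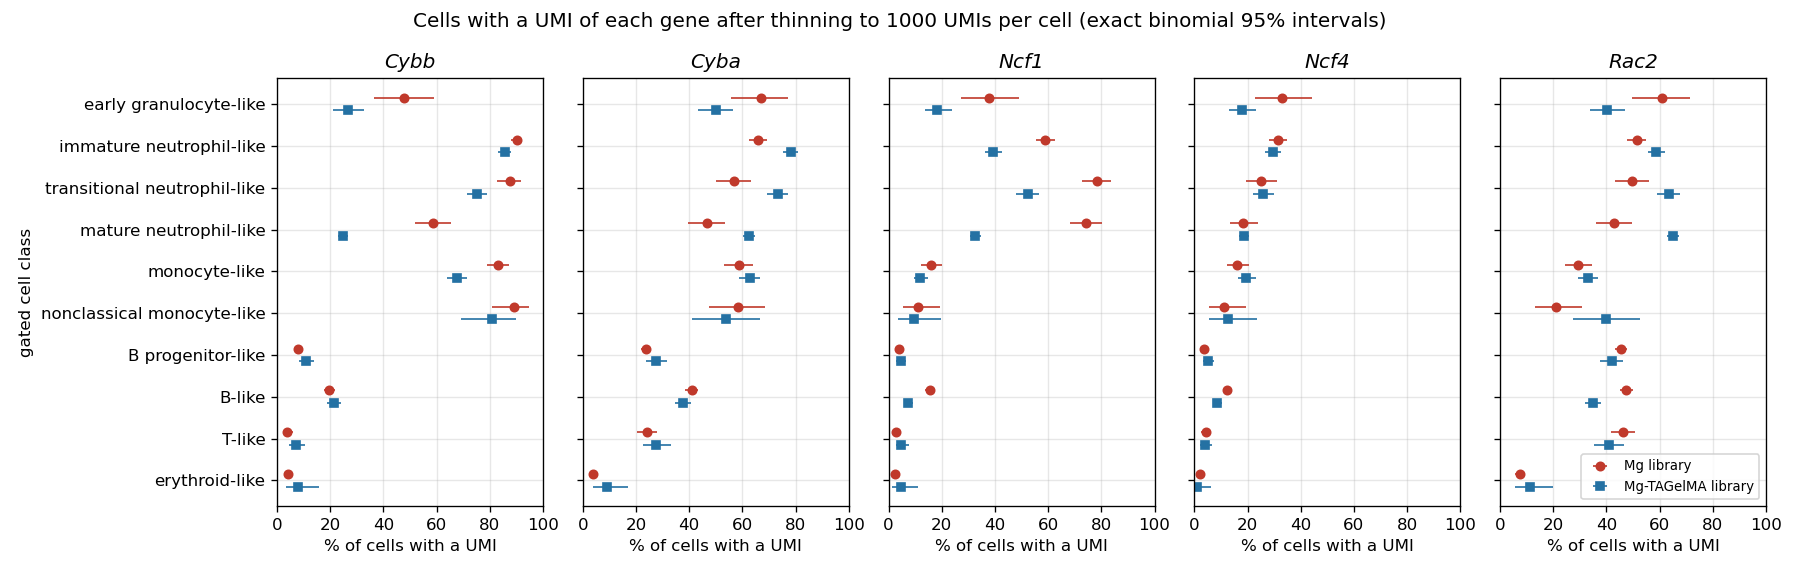
Percent of cells with a UMI of each gene after thinning to 1000 UMIs per cell, by gated class and library, with exact binomial 95% intervals. Cybb goes from 90.3% to 58.6% (Mg, circles) and from 85.6% to 24.8% (Mg-TAGelMA, squares) between immature and mature neutrophil-like cells, with erythroid-like cells at 3.99% and 7.95%.

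At that depth few single cells showed all 5 genes at once. All 5 were seen in 5.05% of Mg and 3.89% of Mg-TAGelMA immature cells, in 7.20% and 4.59% of transitional cells and in 1.40% and 0.887% of mature cells. In monocyte-like cells the share was 0.299% of 334 and 0.498% of 602 cells. With all UMIs kept, 75.8% and 94.6% of immature and 20.8% and 39.1% of mature cells held all 5, at the unequal depth of the libraries and classes. The share was then 42.6% and 70.8% in monocyte-like, 11.4% and 41.3% in plasmacytoid dendritic-like and 0.406% and 16.3% in erythroid-like cells. In the 37 plasma cell-like cells of the Mg-TAGelMA library it was 54.1%, so at full depth it was not particular to neutrophil-like cells.

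Genes whose levels ran most like each member were sought over 23 points, the classes of at least 50 cells in each library, among 7152 genes, by Pearson's r of log2(CPM + 10). The points share libraries, depth and cell origin, so the values are a description. For Cybb the nearest were Aldh3b1 (0.93) and Sort1 (0.93), for Cyba Arpc1b (0.95), Arpc2 (0.94) and Arhgdib (0.93), and for Ncf1 Rogdi (0.94), B430306N03Rik (0.93) and Pygl (0.92). For Ncf4 they were Ugp2 (0.92), Prdx5 (0.91) and Ltb4r1 (0.91), and for Rac2 Pfn1 (0.86), Arhgdib (0.86) and Sun2 (0.86). Among the members, Cyba and Ncf4 ran closest together, at 0.91, and Cybb and Rac2 least, at 0.30.

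The rest of the pathway was counted by lists. Of 16 oxidase partners and activators, 13 were tested in the Mg and 14 in the Mg-TAGelMA library from immature to mature neutrophil-like cells. Past the size rule, 2 were higher in the Mg library (the Rac exchange factor Prex1 and the kinase Prkcd) and 4 in the Mg-TAGelMA library (these and the exchange factor Dock2 and the kinase Syk). Hvcn1, the proton channel that balances the charge of the oxidase, was the 1 lower in both. In all, 3 of 13 and 5 of 14 were past the rule, close to the 23.3% and 34.0% of all genes tested. The list's median log2 fold was 0.47 and 0.41, beside 0.16 and 0.17 over all genes tested. That fold rose with intron length, with medians of -0.40 and -0.35 for genes with up to 2 kb of intron. Genes with 8 to 64 kb had 0.17 and 0.17, and genes with over 64 kb 0.63 and 0.57. The part of intron length in the list's median was not tested. Hvcn1 went from 154 to 27.2 CPM in Mg cells and from 84.5 to 14.4 CPM in the Mg-TAGelMA library, the same direction as Cybb. Other NADPH oxidases and their organisers, such as Nox4, gave 0 of 9 genes with 50 CPM in these classes.

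Of 7 transcription factors known at these genes, 6 were tested in the Mg and 5 in the Mg-TAGelMA library, and 3 were past the rule in each, beside the same 23.3% and 34.0% of all genes. Cebpb and Irf1 were higher and Cebpe, a factor of granule gene stages, lower in mature cells of both libraries. Cebpe went from 456 to 81.5 CPM in Mg cells and from 468 to 56.6 CPM in the Mg-TAGelMA library. Spi1, which encodes PU.1, was at 285 and 342 CPM in immature and mature Mg cells and at 366 and 529 CPM in Mg-TAGelMA cells, not past the rule in either. Among 11 NADPH supply genes 0 of 9 tested were past it in the Mg library, while Taldo1 was higher and Pgls and Rpe lower in the Mg-TAGelMA library, of 7 tested, again beside 23.3% and 34.0% of all genes. Superoxide and peroxide handling genes gave 0 of 9 and 0 of 8 past the rule.

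Between the libraries in mature cells, Dock2, Prkcb and Syk were higher among 13 tested partners and 0 lower, with a list median log2 fold of -0.20, beside -0.12 over all genes tested, of which 18.5% were past the rule. Dock2 and Prkcb were higher past the rule in 7 of the 8 classes compared, B progenitor-like and B-like cells included, and Syk in 5, so this was not a difference of mature cells alone. Prkcb, a kinase that phosphorylates p47phox, was at 634 against 208 CPM in mature cells, while Ncf1 itself was lower. Genes with over 64 kb of intron had a median log2 fold of 0.45 in immature, 0.61 in mature, 1.07 in monocyte-like and 1.31 in B-like cells. The part of intron length and counting in the Dock2, Prkcb and Syk folds was not tested. Idh1 and Rpe were lower among 7 tested NADPH supply genes, with a median of -0.81, beside 8.06% of all genes on the lower side, and 0 of 6 transcription factors were past the rule.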

How the data were processed

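Single-cell RNA was measured with a 10x 3' v3 kit, per the labels' protocols, in 1 library per nail. The authors deposited UMI counts for each gene and barcode, not normalized. Per the file headers they were made with Cell Ranger 5.0.0 (Mg) and 7.0.1 (Mg-TAGelMA), and the submitters' processing notes name STAR and mm10. The libraries held 58261391 and 79890998 UMIs in 9466 and 7591 barcodes. Cells with at least 200 genes and at most 15% mitochondrial counts were kept and scrublet doublets removed (197 and 297, or 2.37% and 3.95%).

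Cells were gated on marker lists, needing at least 3 marker UMIs, with cut points of 400 (S100 genes), 400 (immature), 100 (mature), 50 (early) and 40 (monocyte) UMIs per 10000. Cells past the gates of several lineages, or of none, were left ungated, as were 26 Mg and 32 Mg-TAGelMA cells past the S100 cut but neither stage cut (1071 and 768 in all). The 5 members and all lists were chosen with earlier results of these data known. Summed counts were scaled to CPM with exact Poisson intervals, and ratios carry exact conditional intervals (scipy 1.17.1). Genes at 50 CPM or more in either group count as tested. TMM came from edgeR 4.0.16, median-ratio factors from DESeq2 1.42.0, and clusters from scanpy 1.11.5. All 5 members are named, pathway genes by list, and up to 3 likeliest genes by r, with some items not reported here. GENCODE vM21 gave the gene spans for 32235 of 32285 genes. The scripts that make calls were checked with simulated Poisson counts at set folds. That check held no spread between cells, gates or libraries, so it bears on the arithmetic of the rule alone. Alternatives were cell filters, doublets, gate cut points, scaling, CPM minimum, fold bound, thinning and clusters made without the members.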

Additional observations from a re-analysis of the deposited data

Results flagged for a closer look

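Ncf1 and Rac2 went opposite ways in the 2 libraries when mature were set against immature neutrophil-like cells. Ncf1 had a fold of 1.59 among Mg cells and of 0.848 among Mg-TAGelMA cells. Rac2 had a fold of 0.827 among Mg cells and of 1.08 among Mg-TAGelMA cells. The Mg log2 fold of Rac2 turned to 0.07 with doubled cut points. Relative to the median log2 fold of all genes tested, Rac2 lay at -0.43 in Mg and -0.05 in Mg-TAGelMA cells, the same direction. Ncf1 lay at 0.51 and -0.41 on that scale. The difference between the libraries was not tested, since each is 1 library.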

How the results depend on the processing

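No paired analysis was possible because each group is 1 library. With 1 library per group no replicate could be left out. Of the single-gene log2 folds under alternatives, 386 moved by less than their interval and 229 by more, and 0 of those past the size rule changed sign. The count of members past the rule in early granulocyte-like cells was 4 with an interval beyond 1.5-fold, beside 1038 of 3473 genes tested. It was 0 after thinning to 1000 UMIs, beside 84 genes in all. In transitional cells it was 2 with 1.5-fold, beside 781 of 2793 genes tested. There it was 1 with cut points doubled, beside 142 genes in all. When the total left out Gm42418 and AY036118 it was 1, beside 394 genes. With 1.5-fold the member count was 1 in B progenitor-like cells, beside 1263 of 4085 genes tested, and 2 in B-like cells, beside 1726 of 4018. Immature over early cells it was 2 in the Mg library with TMM scaling, beside 278 genes higher and 206 lower. In the Mg-TAGelMA library it was 5 with TMM scaling, beside 651 genes higher and 525 lower. There it was 5 without S100a8 and S100a9, beside 598 higher and 668 lower, and 1 after thinning. Mature over immature it was 0 in the Mg library with doubled cut points. The total without S100a8 and S100a9 in every comparison, and TMM scaling and the total without Gm42418 and AY036118 in the stage comparisons, were chosen after seeing the data.

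The count of all genes past the rule with 1.5-fold was 1038 of 3473 tested in early granulocyte-like and 879 of 2919 in immature neutrophil-like cells. It was 781 of 2793 in transitional and 1059 of 2952 in mature neutrophil-like cells. In monocyte-like cells it was 1073 of 3917, and 999 of 4071 in nonclassical monocyte-like cells. In B progenitor-like cells it was 1263 of 4085, and 1726 of 4018 in B-like cells. With no CPM minimum it was 1222, 1388, 554 and 844 in the 4 granulocyte classes, 1438 in monocyte-like, 2414 in B progenitor-like and 2569 in B-like cells. After thinning it was 84 in early granulocyte-like, 213 in immature, 180 in transitional, 363 in monocyte-like and 266 in nonclassical monocyte-like cells, and 142 in transitional cells with doubled cut points. Clusters made without the members gave no value for the early, transitional and mature library comparisons or the Mg stage comparisons, because no cluster of Mg cells carried those names. Thinning leaves few UMIs per gene, so depth limits the counts there.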
